A study of Rattus norvegicus with 16 samples.

Results

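The data described here are microRNA (miRNA) profiles of the rat left ventricle at week 7 after 5/6 nephrectomy (5/6Nx, excision of most of the kidney mass), set against sham surgery of the same age. Small RNA was sequenced from 2 libraries (pools A and B) of 5/6Nx rats and 2 libraries of sham rats, 4 of the 16 libraries of a series that also covers weeks 2, 4 and 5. All animals were male Sprague Dawley rats on a 0.4% Dyets chow, operated on at 10 weeks of age, and each library was made from a pool of 2 to 3 of them. Whether pools A and B of a group hold different rats is not stated in the sources used here. Each p-value sets the difference between groups against the spread between pools, not between single rats. That spread is in part shared across miRNAs. Every entry of the week 7 table whose name starts with the rat prefix was taken, 325 of 631 entries, of which 317 are listed at all 4 times and 8 at week 7 only. The other entries are 104 miRNAs named for other species and 202 genomic loci.

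miRNAs are short RNAs cut from hairpin precursors. Each hairpin has a 5p and a 3p arm, and the arm that is loaded into an Argonaute protein pairs with messenger RNAs mainly through its seed, bases 2 to 8, and lowers their output. Members of a family share a seed and thus largely share predicted targets, whereas members of a cluster are cut from one primary transcript whatever their seeds. Loss of kidney function loads the left ventricle through pressure, volume and circulating factors, and cardiac hypertrophy, fibrosis and inflammation are the responses with which miR-21, miR-208b, miR-132, miR-199a and miR-146 are commonly discussed.

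The mature sequences of the miRNAs on which the results turn are shown with their seeds in capitals, grouped so that members with one seed can be compared. They are RefSeq sequences (GRCr8), which were found by name for 293 of the 325 entries and for 27 of the 29 that passed the test. miR-193-3p and miR-30e-3p are named only.
miR-21-5p: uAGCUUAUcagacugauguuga
miR-21-3p: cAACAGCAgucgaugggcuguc
miR-146b-5p: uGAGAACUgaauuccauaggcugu
miR-146a-5p: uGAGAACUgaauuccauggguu
miR-208b-3p: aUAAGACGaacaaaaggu
miR-208a-3p: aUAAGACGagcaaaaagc
miR-221-3p: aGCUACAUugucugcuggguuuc
miR-222-3p: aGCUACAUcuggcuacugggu
miR-132-3p: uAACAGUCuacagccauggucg
miR-212-3p: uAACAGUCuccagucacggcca
miR-199a-5p: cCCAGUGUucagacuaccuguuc
miR-199a-3p: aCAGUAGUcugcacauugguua
miR-214-3p: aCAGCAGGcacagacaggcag
miR-34a-5p: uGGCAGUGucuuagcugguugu
miR-34c-5p: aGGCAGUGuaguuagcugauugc
miR-23b-3p: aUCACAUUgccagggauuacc
miR-23a-3p: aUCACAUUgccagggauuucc
miR-27a-3p: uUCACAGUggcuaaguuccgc
miR-27b-3p: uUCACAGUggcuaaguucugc
miR-181a-5p: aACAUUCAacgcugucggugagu
miR-181b-5p: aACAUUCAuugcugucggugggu
miR-181c-5p: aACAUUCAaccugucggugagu
miR-181d-5p: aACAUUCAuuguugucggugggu
miR-101a-3p: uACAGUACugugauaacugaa
miR-101b-3p: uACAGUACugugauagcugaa
miR-9a-5p: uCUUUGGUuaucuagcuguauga
miR-127-3p: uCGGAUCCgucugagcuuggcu
miR-10a-5p: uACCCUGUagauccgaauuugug

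Some of these differ by a single base over their compared length, as counted without gaps from the 5′ end: miR-23a-3p and miR-23b-3p, miR-27a-3p and miR-27b-3p, miR-181b-5p and miR-181d-5p, and miR-101a-3p and miR-101b-3p each have 1 difference. miR-146b-5p and miR-146a-5p share their first 17 bases. How the counting shared reads between such neighbours is not given in the sources used here, so levels of near-identical members are uncertain to that extent.

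Counts on rat miRNAs were 1625699 in pool A and 1365890 in pool B after 5/6Nx, against 1073616 in pool A and 672077 in pool B of sham. In a table of mapping that does not carry the pool letters, 89.3% and 87.6% of reads mapped and each distinct sequence was read 20.3 and 21 times in 5/6Nx libraries, against 91.3% and 92.7% and 10.8 and 14.6 times in sham libraries. Depth, mapped share and reads per distinct sequence thus moved with surgery in all 4 libraries, and they and surgery cannot be told apart within week 7. Levels of 253 rat miRNAs with enough counts to test correlated at r = 0.994 between 5/6Nx pools, 0.991 between sham pools and 0.981 to 0.983 between groups, on the log2(CPM + 1) scale across miRNAs. The other 72 had at most 18 counts in any pool. Levels are given as CPM, counts divided by the library size after TMM scaling.

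At week 7 miR-21, miR-146b, miR-208b, miR-221, miR-132 and the miR-199a/miR-214 cluster were higher after 5/6Nx, and miR-9a, miR-127 and members of the miR-181 family were lower. Of the 253 tested miRNAs 29 passed the edgeR quasi-likelihood test at an adjusted p under 0.05 (11.5%), 18 higher after 5/6Nx (7.11%) and 11 lower (4.35%), and 77 had an unadjusted p under 0.05. The median log2 change of all tested miRNAs was 0.01, with 131 (51.8%) above sham and the rest below. Both 5/6Nx pools lay above both sham pools for 73 miRNAs (28.9%) and below both for 70 (27.7%), together 56.5% of those tested, the 29 that passed among them. An exact permutation test of 2 against 2 pools cannot give a p lower than 1 in 3, so each call rests on the spread that edgeR shares across miRNAs.

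Fits that leave out 1 pool, some with the filter on low counts recomputed, cannot show whether the number of calls depends on that pool. The group left with 1 pool has no spread of its own. Without a sham pool the spread within these libraries comes from the 5/6Nx pair alone. Without a 5/6Nx pool it comes from the sham pair alone. A call lost in such a fit therefore does not show that it depends on the level in the missing pool. Over all other settings the log2 change ran from 1.41 to 1.57 for miR-21-5p and from 1.29 to 1.74 for miR-208b-3p. With the spread pooled over all 16 libraries 13 of the 29 remained (4.25% of 306 tested there): both arms of miR-21, miR-146b-5p, miR-221-3p, miR-208b-3p, miR-132-3p, miR-199a-5p, miR-193-3p, miR-223-3p and miR-511-3p higher, and miR-181d-5p, miR-9a-5p and miR-300-3p lower. With the other species' entries and loci added to the fit, only the 2 arms of miR-21 remained. In all, the 29 calls were refitted in up to 23 other settings, 12 of which leave out 1 pool, and the number in which a call was lost is given with the miRNA.

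**Figure D1:**
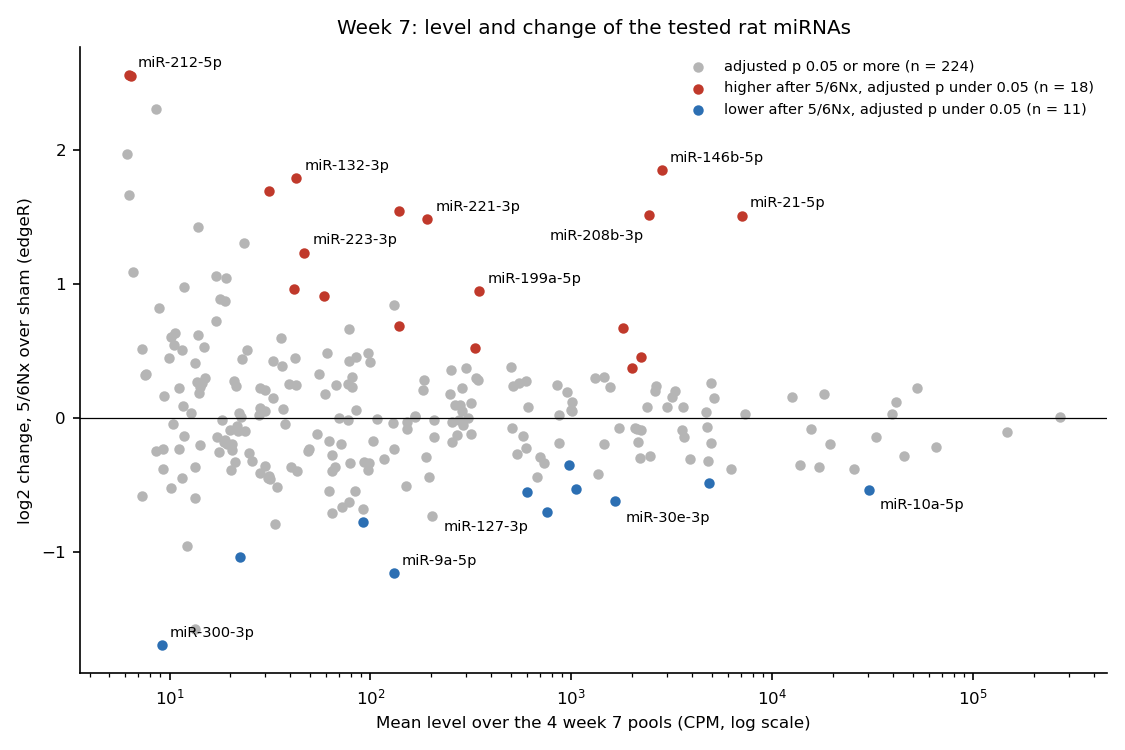
Each point is 1 of 253 tested rat miRNAs at week 7, with its mean CPM over the 4 pools on a log axis and its log2 change of 5/6Nx over sham. The 18 red points passed higher and the 11 blue points passed lower; among miRNAs above 10000 CPM the only one that passed is miR-10a-5p.

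miR-21, which fibroblasts and macrophages express strongly, is raised in many forms of cardiac stress. Its hairpin lies on the minus strand at chr10:71902600-71902691 (GRCr8). miR-21-5p had 10666 and 10164 CPM in 5/6Nx pools against 3516 and 3798 CPM in sham pools. Both 5/6Nx pools lay far above both sham pools, and the level was 2.85-fold higher (log2 1.51 ± 0.10 SE, edgeR adjusted p = 0.000163). The other arm, miR-21-3p, whose seed is different, had 216 and 198 CPM against 70.6 and 71.1 CPM and was 2.92-fold higher (log2 1.55 ± 0.15, edgeR adjusted p = 0.000831). Both arms thus rose by a like factor, though the 3p arm lost its call in 8 of 23 other settings, those without sham pool A or sham pool B among them. miR-21-5p kept its call in 22 of the 23 other settings tried, with log2 changes of 1.41 to 1.57; the exception was the recomputed filter without sham pool B (adjusted p = 0.052).

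In some pairs that share a seed 1 member passed and the other did not; the difference between the members was not tested. miR-146a and miR-146b are both induced by NF-kB and are known to repress the adaptors Traf6 and Irak1. miR-146b-5p had 5129 and 3668 CPM after 5/6Nx and 1215 and 1227 CPM in sham. The 5/6Nx pools differed from each other more than the sham pools did, but both lay well above sham (3.60-fold, log2 1.85 ± 0.16, edgeR adjusted p = 0.000667; call lost in 5 of 23 other settings). miR-146a-5p had 2367 and 2554 CPM after 5/6Nx and 2168 and 2477 CPM in sham. Its groups overlapped and it did not pass (log2 0.08 ± 0.11, adjusted p = 0.624). The hairpins lie on different chromosomes, miR-146b at chr1:255144860-255144947 and miR-146a at chr10:28349996-28350090 (GRCr8).

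miR-208a and miR-208b, with one seed, lie in introns of the 2 cardiac myosin heavy chain genes, Myh6 (the adult rodent form) and Myh7 (the fetal form, which is re-expressed under load). miR-208b-3p had 3453 and 3790 CPM after 5/6Nx against 1083 and 1462 CPM in sham, and the groups did not overlap (2.85-fold higher, log2 1.51 ± 0.15, edgeR adjusted p = 0.000831; call lost in 2 of 23 other settings). miR-208a-3p had 513 and 482 CPM after 5/6Nx and 608 and 428 CPM in sham, with sham pools on either side, and did not pass (log2 -0.07 ± 0.16, adjusted p = 0.799). miR-499-5p, from an intron of the myosin gene Myh7b, had 643 and 651 CPM against 822 and 803 CPM. Both of its 5/6Nx pools lay below both sham pools, but it did not pass (log2 -0.33 ± 0.09, adjusted p = 0.0582). Of the 5 tested arms of myosin-intron miRNAs 1 passed, and the other 4 lay below sham without passing.

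miR-221 and miR-222 come from one X-linked transcript and target the cell cycle inhibitor p27. miR-221-3p had 314 and 249 CPM after 5/6Nx against 95.7 and 107 CPM in sham (2.80-fold higher, log2 1.49 ± 0.17, edgeR adjusted p = 0.00157; call lost in 5 of 23 other settings). miR-221-5p, the lesser arm, had 23.5 and 17.05 CPM against 8.70 and 5.93 CPM (log2 1.43 ± 0.39, adjusted p = 0.052). miR-222-3p had 200.1 and 133.4 CPM against 64.8 and 127.4 CPM; the lower 5/6Nx pool was close to the higher sham pool and it did not pass (log2 0.84 ± 0.32, adjusted p = 0.131). All 3 tested members lay above sham and 1 passed.

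miR-132 and miR-212 are cut from one transcript and are known in mouse to promote hypertrophy of cardiomyocytes. miR-132-3p had 65.3 and 68.2 CPM after 5/6Nx against 21.3 and 16.3 CPM in sham (3.47-fold higher, log2 1.79 ± 0.24, edgeR adjusted p = 0.00324). miR-212-5p, which is listed in the week 7 table only, had 18 and 15 counts after 5/6Nx against 2 and 1 in sham. Scaled for depth this is a ratio of 6.17 with an exact 95% interval of 1.93 to 31.4, which covers counting error only, and it passed (adjusted p = 0.0323). miR-212-3p had 14.7 and 14.8 CPM against 4.83 and 0 CPM, with the seed of miR-132-3p, and did not pass (adjusted p = 0.0582). The 3 tested members all lay above sham, with a median log2 change of 2.31. The calls of miR-132-3p and miR-212-5p were lost in 6 of 23 and 8 of 17 other settings. That median was 1.64 without sham pool B.

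**Figure D2:**
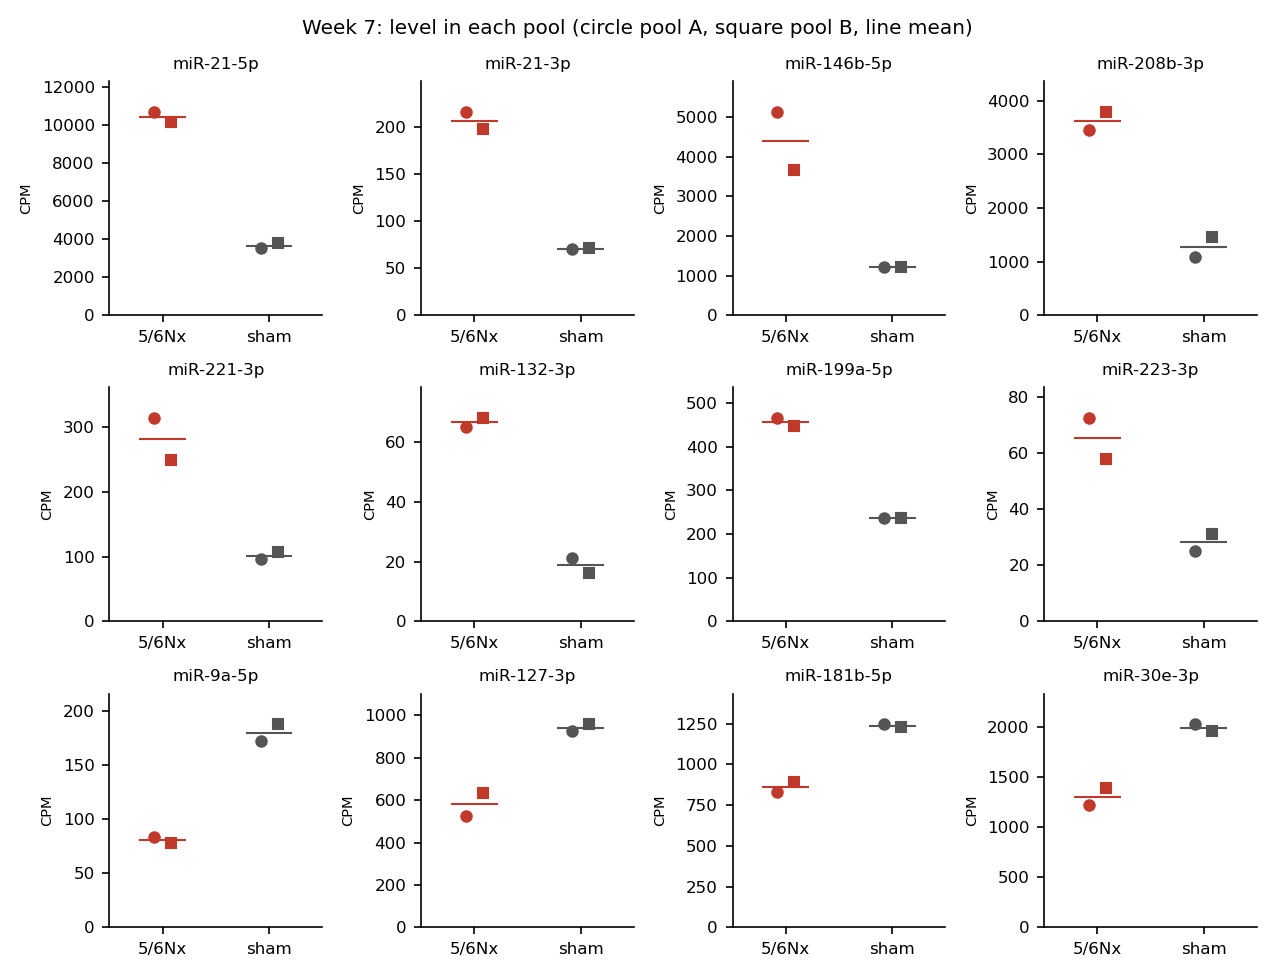
Level in CPM of 12 miRNAs that passed at week 7, in 5/6Nx pools (red, left) and sham pools (grey, right); circles are pool A, squares pool B, lines group means, and each axis starts at 0. In every panel both 5/6Nx pools lie on one side of both sham pools.

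The miR-199a/miR-214 cluster is transcribed from within the span of the dynamin gene Dnm3 on the opposite strand and is rich in fibroblasts and other mesenchymal cells. All 3 tested members passed. miR-199a-5p had 465 and 447 CPM after 5/6Nx against 237 and 236 CPM in the sham pools (1.93-fold higher, log2 0.95 ± 0.11, edgeR adjusted p = 0.00157). miR-214-3p had 52.4 and 57.1 CPM against 23.2 and 34.1 CPM (log2 0.97 ± 0.25, adjusted p = 0.0495). The most abundant member, miR-199a-3p, had 2260 and 2239 CPM against 1681 and 1788 CPM and showed the smallest rise of the 3, 1.30-fold (log2 0.38 ± 0.09, adjusted p = 0.0449). Of 23 other settings, the calls of miR-199a-5p, miR-214-3p and miR-199a-3p were lost in 9, 19 and 16.

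The miR-23/27/24 clusters are 2 similar transcripts on chromosomes 17 and 19, whose miRNAs act in vessels and in lipid and TGF-beta signalling. Of their 8 tested members 7 lay above sham, 3 passed higher and the median log2 change was 0.38. Over all tested miRNAs 51.8% lay above sham, 7.11% passed higher and the median was 0.01. miR-23b-3p had 2263 and 2160 CPM after 5/6Nx against 1269 and 1514 CPM in sham (1.59-fold, log2 0.67 ± 0.11, edgeR adjusted p = 0.0111). miR-27a-3p had 2753 and 2401 CPM against 1840 and 1917 CPM (1.37-fold, adjusted p = 0.0345), and miR-24-2-5p had 354 and 429.2 CPM against 274 and 270 CPM (1.44-fold, adjusted p = 0.0488). Of 23 other settings, these 3 calls were lost in 10, 12 and 18, and all 3 were lost in the fit of 16 libraries. In the cluster of chromosome 19 all 5 tested members lay above sham, of which miR-24-3p comes from both transcripts. The most abundant member, miR-27b-3p, had 55916 and 56998 CPM against 47680 and 48672 CPM and did not pass (log2 0.23 ± 0.10, adjusted p = 0.163).

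Both tested members of the miR-34 family, which p53 induces, passed. miR-34a-5p had 179 and 164 CPM after 5/6Nx against 105 and 108 CPM in sham (1.61-fold, log2 0.69 ± 0.15, edgeR adjusted p = 0.0296). miR-34c-5p, from another chromosome, had 72.4 and 81.5 CPM against 42.5 and 38.5 CPM (1.88-fold, log2 0.91 ± 0.20, adjusted p = 0.031). miR-193-3p had 58.8 and 36.3 CPM after 5/6Nx against 12.6 and 17.8 CPM in sham pools (log2 1.70 ± 0.35, adjusted p = 0.0262), and miR-365-3p, listed here with the miR-193/miR-365 clusters, had 25.9 and 25.2 CPM against 11.6 and 13.3 CPM without passing (adjusted p = 0.0529). The groups of these 4 miRNAs did not overlap. miR-34a-5p and miR-34c-5p each lost the call in 13 of 23 other settings, DESeq2 and the fit of 16 libraries included, and miR-193-3p in 7 of 22.

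Among the lower miRNAs the miR-181 family stood on one side throughout. Of its 7 tested arms all lay below sham, with no overlap of the pools, and 3 passed lower (median log2 -0.50). Over all tested miRNAs 27.7% lay below both sham pools and 4.35% passed lower. The family stayed below sham in all 7 arms under other scalings and without any 1 pool, with medians between -0.51 and -0.31. miR-181d-5p had 498 and 482 CPM after 5/6Nx against 701 and 732 CPM in sham (1.46-fold lower, log2 -0.55 ± 0.10, edgeR adjusted p = 0.0144). miR-181b-5p, which differs from it by 1 base, had 830.3 and 894 CPM against 1248 and 1230 CPM (1.44-fold lower, adjusted p = 0.0145). miR-181a-2-3p, an arm with a different seed, had 65.9 and 69.7 CPM against 126.7 and 104 CPM (1.71-fold lower, adjusted p = 0.0359). Of 23 other settings, these 3 calls were lost in 9, 10 and 15, those of miR-181b-5p and miR-181a-2-3p also in the fit of 16 libraries. By far the most abundant arm, miR-181a-5p, had 20623 and 23867 CPM against 29051 and 28760 CPM and did not pass (log2 -0.38 ± 0.11, adjusted p = 0.0582). miR-181 miRNAs are known for roles in lymphocytes and in mitochondria of the heart.

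miR-9a-5p, a miRNA known chiefly from neural tissue, had 83.6 and 77.8 CPM after 5/6Nx against 172 and 188 CPM in sham, 2.22-fold lower with no overlap (log2 -1.15 ± 0.15, edgeR adjusted p = 0.00324; call lost in 8 of 23 other settings). miR-9b-3p, listed with it, had 25.3 and 22.98 CPM against 37.7 and 47.4 CPM and did not pass (edgeR adjusted p = 0.0675). Its 18 bases are the reverse complement of a stretch of miR-9a-5p, from the opposite strand at the Mir9-2 and Mir9-3 loci. Whether its counts stand for a separate miRNA was not tested. miR-10a-5p, which is encoded among the Hoxb genes, had 21755 and 27837 CPM against 37882 and 33915 CPM (1.45-fold lower, log2 -0.53 ± 0.14, adjusted p = 0.0495). It was the 1 of the 10 most abundant miRNAs to pass, and it lost the call in 18 of 23 other settings.

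miR-30e-3p had 1220 and 1385 CPM after 5/6Nx against 2028 and 1959 CPM in sham (1.53-fold lower, log2 -0.61 ± 0.10, edgeR adjusted p = 0.0111). It was the 1 of 11 tested arms of the miR-30 family, known for restraint of connective tissue growth factor, to pass. The family had 8 arms below sham and a median of -0.08, and its abundant member miR-30a-5p had 60731 and 60830 CPM against 68913 and 71891 CPM (adjusted p = 0.195). miR-101a-3p had 3921 and 4137 CPM against 5646 and 5596 CPM and passed lower (log2 -0.48 ± 0.09, adjusted p = 0.0171), whereas miR-101b-3p, with the same seed and 1 base apart, had 340 and 334 CPM against 262 and 256 CPM, above sham without passing (log2 0.38 ± 0.11, adjusted p = 0.0601). miR-125b-2-3p had 858 and 852 CPM against 1094 and 1088 CPM (log2 -0.35 ± 0.09, adjusted p = 0.0495), while the main arm miR-125b-5p had 3362 and 3297 CPM against 2908 and 3051 CPM (adjusted p = 0.277). miR-6314, a miRNA of no list used here, had 14.7 and 14.8 CPM against 30.9 and 29.6 CPM and passed lower (adjusted p = 0.0488). The calls of miR-30e-3p, miR-101a-3p and miR-125b-2-3p were lost in 10, 12 and 20 of 23 other settings, the last being the highest number of all 29, and that of miR-6314 in 18 of 22.

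The Dlk1-Dio3 cluster is a large imprinted group of miRNAs on chromosome 6. Of its 9 tested members 6 lay below sham and 2 passed lower (median log2 -0.19), where 4.35% of all tested miRNAs passed lower and 51.8% lay above sham. miR-127-3p, which lies antisense to Rtl1, had 524 and 635 CPM after 5/6Nx against 924 and 959 CPM in sham (1.63-fold lower, log2 -0.70 ± 0.12, edgeR adjusted p = 0.0111). miR-300-3p had only 6 and 7 counts against 15 and 9 (log2 -1.69 ± 0.43, adjusted p = 0.0495). The call of miR-127-3p was lost in 10 of 23 other settings, the fit of 16 libraries among them, and that of miR-300-3p in 17 of 22. The other 7 tested members did not pass, with log2 changes of -0.95 for miR-409b to 0.27 for miR-381-3p. miR-409b, counted among the 6 below sham, has its hairpin on the minus strand (GRCr8), whereas the other tested members lie on the plus strand. Whether it belongs to the same transcript was not tested.

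**Figure D3:**
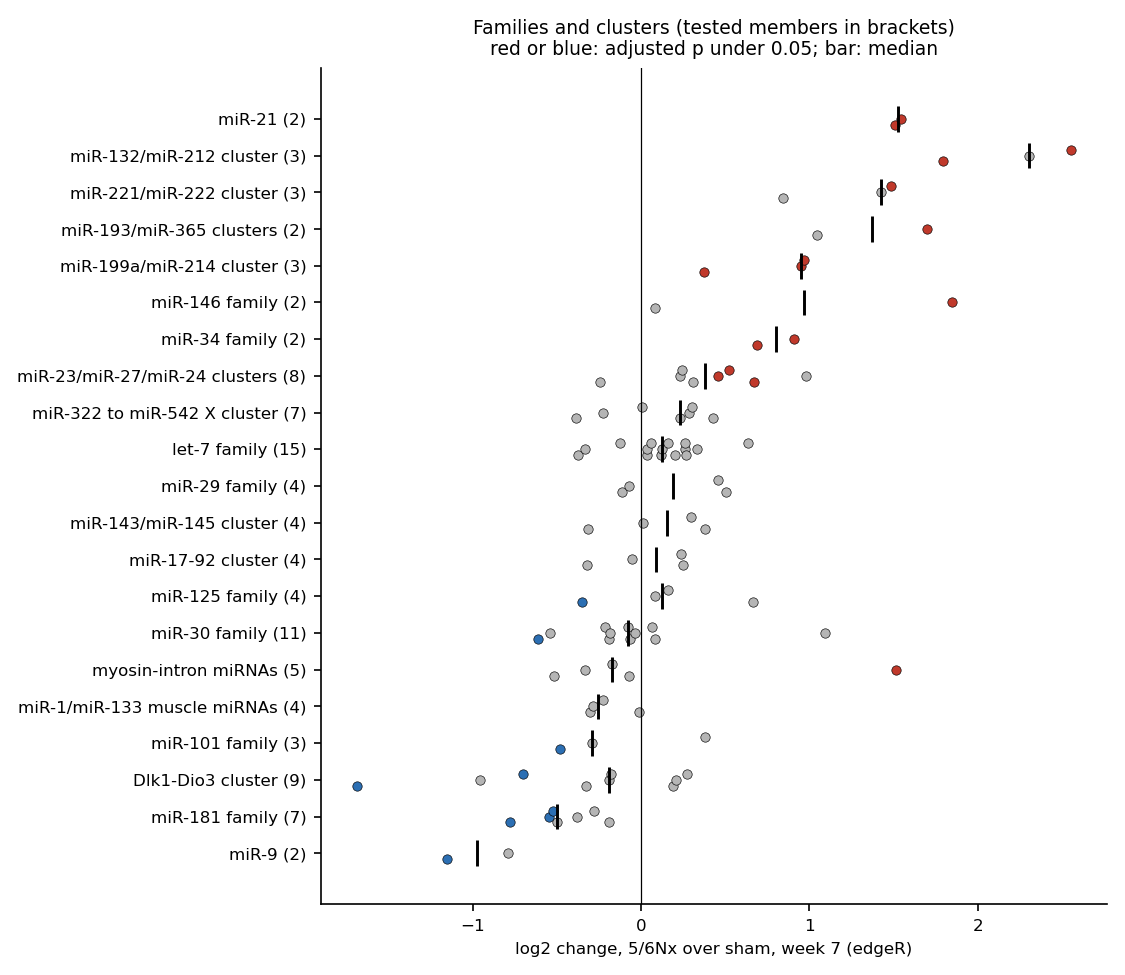
Log2 change of 5/6Nx over sham for the tested members of 21 families, clusters and single hairpins; red and blue points passed, grey points did not, and the bar is the median of a row. Rows at the top lie wholly above 0 and the miR-1/miR-133, miR-181 and miR-9 rows wholly below it. The 2 miR-9 entries mirror each other in sequence. The let-7, miR-30 and Dlk1-Dio3 rows spread over both sides.

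Several large families had no member that passed. Of the 15 tested let-7 arms 12 lay above sham (median log2 0.13). This direction depended on the pools: without sham pool A 6 lay above and 9 below. let-7f-5p, the most abundant, had 13404 and 12892 CPM after 5/6Nx and 10215 and 13353 CPM in sham. The muscle miRNAs miR-1 and miR-133, which restrain cardiac growth, lay below sham in 4 of 4 tested arms: miR-133a-3p had 42926 and 39104 CPM against 50371 and 49409 CPM (log2 -0.28 ± 0.10, edgeR adjusted p = 0.113), and miR-1-3p had 3312 and 3626 CPM against 3504 and 5054 CPM (adjusted p = 0.266). Without 5/6Nx pool B, without sham pool B and with library sizes that leave out the 5 top miRNAs, 1 of the 4 lay above sham. The antifibrotic miR-29 family had 2 of 4 arms above sham, with miR-29a-3p at 1792 and 1572 CPM against 1850 and 1689 CPM (adjusted p = 0.676).

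No member passed in the miR-17-92 cluster, a driver of proliferation, where 2 of 4 tested lay above sham, nor in the X-linked cluster of miR-322 to miR-542 (5 of 7 above, median log2 0.23). The smooth muscle cluster miR-143/miR-145 had 3 of 4 above sham, and its member miR-143-3p, the most abundant miRNA of the tissue by CPM, had 246192 and 298904 CPM after 5/6Nx and 277089 and 263128 CPM in the sham pools (log2 0.01 ± 0.13, edgeR adjusted p = 0.962). miR-22-3p, the next in level, had 143286 and 142226 CPM against 166191 and 139954 CPM (adjusted p = 0.618). In both cases the pools of the groups overlapped. Of the other abundant miRNAs, miR-26a-5p had 42903 and 43593 CPM against 41279 and 38016 CPM (adjusted p = 0.467), miR-191a-5p had 38313 and 41609 CPM against 41393 and 36554 CPM (adjusted p = 0.851), and miR-126a-5p, the endothelial miRNA, had 31080 and 31149 CPM against 37022 and 31501 CPM (adjusted p = 0.467). None of these 3 passed.

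Arms and clusters could be compared over the table, with arms paired only where their names match apart from 5p or 3p. Of 54 hairpins with both arms tested, 37 had arms on the same side of sham, and the log2 changes of 5p and 3p correlated at r = 0.731 across hairpins, which share libraries and depth. Among these hairpins miR-378a and miR-3557 are opposite strands of the same locus and are counted separately. Both arms passed for miR-21 and miR-199a. For the 5 hairpins with 1 arm that passed (miR-212, miR-221, miR-27a, miR-101a and miR-30e) the other arm lay on the same side. The pairing leaves out arms numbered by hairpin copy, of which miR-125b-2-3p, miR-181a-2-3p and miR-24-2-5p passed. miR-125b-2-3p was lower (log2 -0.35) whereas miR-125b-5p lay above sham (log2 0.16). miR-181a-2-3p and miR-24-2-5p lay on the same side as miR-181a-5p and miR-24-3p. Of 36 genomic clusters (hairpins on one strand within 10 kb, GRCr8) with 2 or more tested members, 16 had all members on one side, 7 above and 9 below, and 9 clusters held a miRNA that passed. The miR-1/miR-133a locus is counted once per strand, both times with all members below. Counts of clusters and seed groups leave out entries without a sequence. miR-30e-3p, which passed, is therefore not counted in the cluster on chromosome 5 that holds its hairpin. Of 28 seed groups with 2 or more tested members 9 held one that passed, 7 of them with all members on one side. The 2 others were the miR-101 and miR-208 groups, and no seed group held both a higher and a lower call. A cluster or seed group is counted once any member passed, and 11.5% of all tested miRNAs passed. Groups without a call could also lie on one side, as the 8 members of the let-7 seed group did, all above sham.

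**Figure D4:**
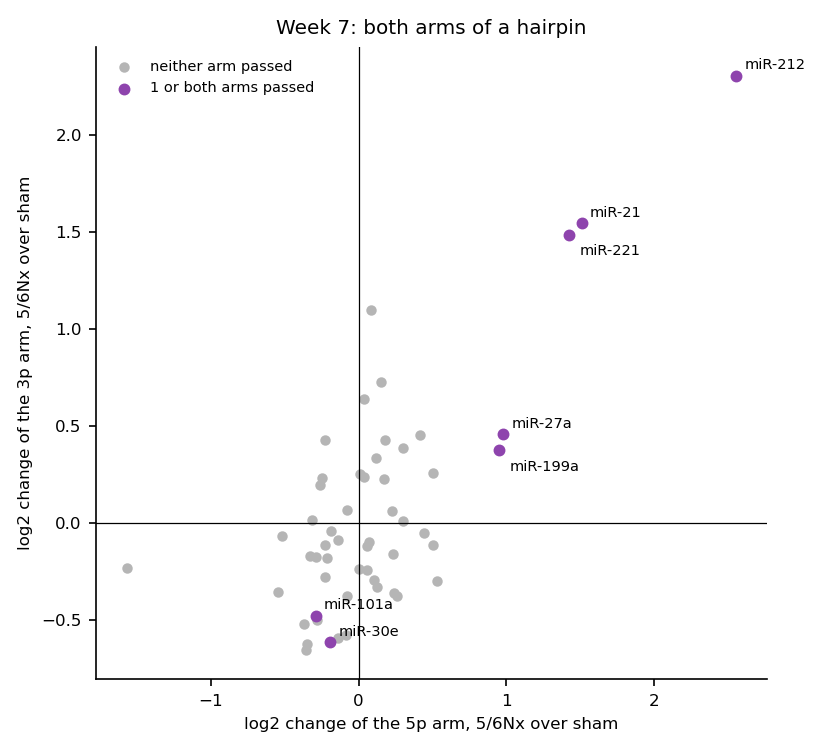
Log2 change of the 5p arm (x axis) and the 3p arm (y axis) of 54 hairpins with both arms tested at week 7; purple points have 1 or both arms that passed and are named. All 7 named hairpins have both arms on the same side of 0. Arms were paired by name, which leaves out arms numbered by hairpin copy, such as miR-125b-2-3p.

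Marker miRNAs of cell types were set beside these changes. In bulk tissue, fewer cells of a type and less RNA per cell cannot be told apart. The 4 fibroblast markers (miR-21-5p, miR-199a-5p, miR-199a-3p and miR-214-3p) all passed higher, and these are the miRNAs already described, not further evidence. Their summed level was 13444 and 12907 CPM after 5/6Nx against 5457 and 5856 CPM in sham, most of it miR-21-5p. The other 3, the miR-199a/miR-214 cluster, summed to 2778 and 2743 CPM against 1941 and 2058 CPM. Of 6 cardiomyocyte markers miR-208b-3p passed and 5 lay below sham without passing, and the sum was 50871 and 47664 CPM against 56403 and 57179 CPM. Of 6 leukocyte markers 5 lay above sham and 2 passed higher, beside 51.8% and 7.11% of all tested miRNAs. miR-223-3p of myeloid cells had 72.4 and 57.8 CPM against 25.1 and 31.1 CPM (log2 1.24 ± 0.24, edgeR adjusted p = 0.019). The second, miR-511-3p, is encoded within Mrc1, the mannose receptor gene of macrophages, and had 17 and 16 counts against 1 and 2 (ratio 6.17, 95% interval 1.93 to 31.4 for counting error only, adjusted p = 0.0449). Their calls were lost in 10 of 23 and 15 of 22 other settings. miR-155-5p had 25.9 and 41.5 CPM against 14.5 and 11.9 CPM (adjusted p = 0.052), and the abundant lymphocyte miRNA miR-150-5p had 620 and 530 CPM against 744 and 813 CPM (adjusted p = 0.052). The leukocyte sum was 1061 and 917 CPM against 1078 and 1089 CPM.

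Erythrocyte markers (3 of 3 below sham, summed level 318 and 274 CPM against 376.1 and 273 CPM), endothelial markers (2 of 2 below, 34585 and 34499 CPM against 40888 and 34930 CPM) and smooth muscle markers (2 of 2 above, 246599 and 299232 CPM against 277358 and 263461 CPM) had 0 members that passed in edgeR. The erythrocyte list lay above sham in 3 of 3 without sham pool A and in 1 of 3 without 5/6Nx pool B. The liver miRNA miR-122-5p had 5 and 0 counts after 5/6Nx and 3 and 1 in sham. The kidney miRNA miR-192-5p had 2023 and 2003 CPM against 2202 and 2340 CPM and did not pass (adjusted p = 0.245). The kidney miRNAs miR-194-5p and miR-215 lay above sham, also without passing (log2 0.15 and 1.97, edgeR adjusted p = 0.727 and 0.0902). miR-215 was low, with a mean of 9.60 CPM after 5/6Nx and 2.71 CPM in sham. The part of cell composition in the changes was not tested.

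Of the 8 miRNAs listed at week 7 only, miR-212-5p passed and miR-378b, with 18 and 18 counts after 5/6Nx and 11 and 8 in sham, did not (edgeR adjusted p = 0.902). The other 6 were too low to test. Among them miR-129-5p had 13 and 5 counts against 2 and 1, and miR-191b had 5 and 5 against 1 and 1. miR-122-5p, miR-139-3p, miR-18a-3p and miR-673-3p had 0 to 7 counts in every pool.

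The week 7 change was set against the mean change at weeks 2, 4 and 5 in a fit of 306 rat miRNAs over all 16 libraries, in which each week has its own sham pools. In that fit 4 miRNAs passed (1.31%), all with a larger change at week 7, and 44 had an unadjusted p under 0.05. For miR-146b-5p the log2 changes at weeks 2, 4, 5 and 7 were 0.47, 0.61, -0.93 and 1.80, and the difference was 1.76 ± 0.22 (edgeR adjusted p = 0.00037). Those of miR-21-5p were 0.50, 0.33, 0.18 and 1.47, a difference of 1.13 ± 0.16 (adjusted p = 0.000807). miR-208b-3p had 0.12, -0.34, -0.10 and 1.48 (difference 1.59 ± 0.25, adjusted p = 0.00144). miR-221-3p had 0.43, 0.26, 0.27 and 1.44 (difference 1.12 ± 0.22, adjusted p = 0.0106), and it lost its call without 5/6Nx pool A, sham pool A or sham pool B of week 7 (adjusted p = 0.113 to 0.147). miR-199a-5p and miR-9a-5p did not pass (difference 0.83 ± 0.21 and -1.02 ± 0.26, adjusted p = 0.0869 for both).

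When a sham pool of week 5 was left out, 17 (pool A) or 23 (pool B) miRNAs passed. The week 7 libraries have fewer reads (2214038 to 4984951, against 6817002 to 13480436 at other weeks), more reads per distinct sequence (10.8 to 21, against 7.15 to 12.4) and fewer rat miRNAs listed (325 against 358). These differences and the week cannot be told apart.

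**Figure D5:**
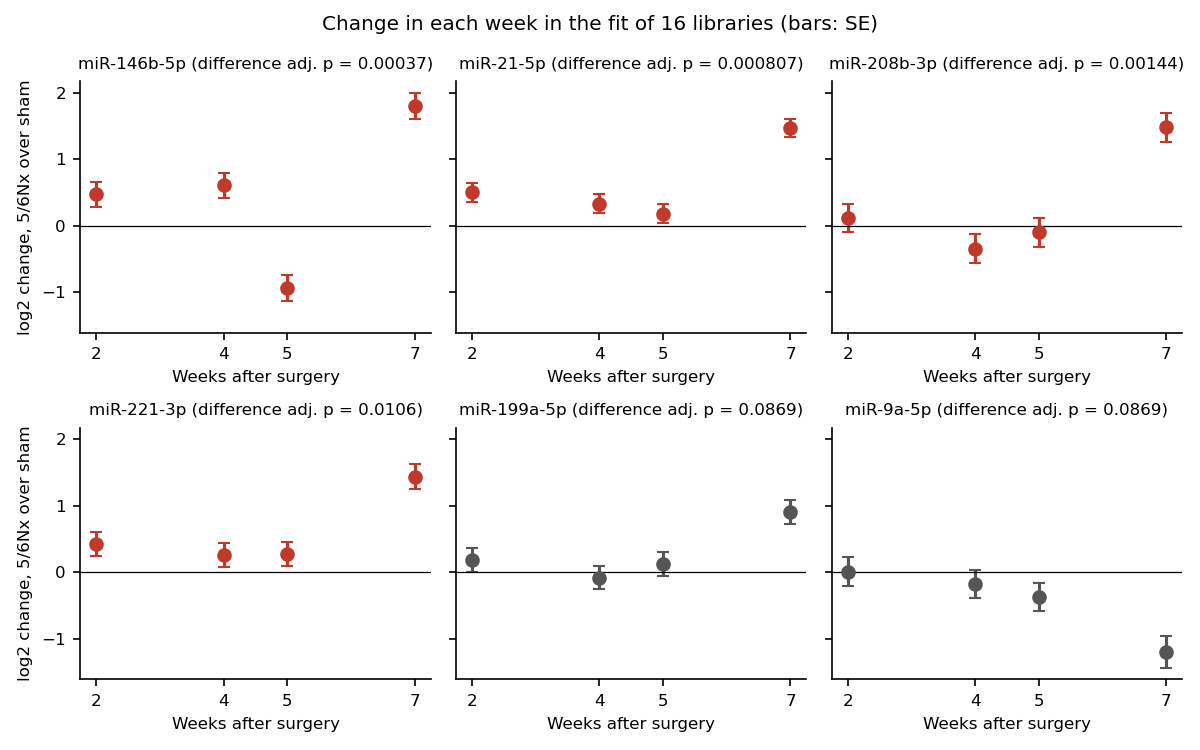
Log2 change of 5/6Nx over sham at 2, 4, 5 and 7 weeks in the fit of 16 libraries (points, with SE bars) for the 4 miRNAs whose week 7 change passed against the mean of the other weeks (red) and for miR-199a-5p and miR-9a-5p, which did not (grey). The 4 red miRNAs have week 7 changes of 1.44 to 1.80, above each of their other weeks.

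In the authors' deposited table for week 7, 5 of 325 rat miRNAs have an adjusted p under 0.05 (1.54%), which are both arms of miR-21 with miR-221-3p, miR-146b-5p and miR-208b-3p. All 5 are among the 29 that passed here.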

How the data were processed

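Libraries came from Trizol RNA by a TruSeq small RNA kit and were sequenced on an Illumina instrument, per the labels' protocols. Tools named in the submitters' processing notes are cutadapt, Bowtie and DESeq. The sources used here do not give mapping settings, build, annotation or how reads were shared among matching entries. The deposited tables hold raw counts that the authors did not normalize, and the authors' DESeq p-values; a further deposited table gives the percent of mapped reads. Other species' entries and loci can repeat the same reads and were left out of the main fit.

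edgeR 4.0.16 (R 4.3.3) was fitted to the 4 week 7 libraries, with TMM, a minimum count of 10, the quasi-likelihood F test and Benjamini-Hochberg adjustment over 253 miRNAs (two-sided, dispersion 0.0106, 2 residual degrees of freedom). The SE is the log2 change over the root of F. Scripts were tested on simulated data. Named are the miRNAs that passed (up to 15 per direction by size of change, with members of their families and clusters), the 10 most abundant, those listed at week 7 only, the most abundant members of each list and those that passed against the other weeks. Alternatives were DESeq2 1.42.0, limma-voom (limma 3.58.1), other scalings, filters, entries, blocks and pools left out. Members and lists were chosen with earlier results of these data known. The form of the fits that leave out a pool was changed after its first counts had been seen; both forms are given.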

Additional observations from a re-analysis of the deposited data

Results flagged for a closer look

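The week 7 change differed from the mean change of weeks 2, 4 and 5 for 4 miRNAs by a test of the difference itself (edgeR, 306 miRNAs): 1.76 for miR-146b-5p, 1.13 for miR-21-5p, 1.59 for miR-208b-3p and 1.12 for miR-221-3p, on the log2 scale.

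The comparisons do not use the 202 genomic loci. Of these, 5 had more than 10 counts in both 5/6Nx pools and 0 in both sham pools. A count of 0 allows up to 3 counts per library. Loci with 0 in both 5/6Nx pools are not given here. Sham pools A and B were shallower, with 2199384 and 1692936 counts over all entries against 4075043 and 3497650 after 5/6Nx. The coordinates are those of the deposited table, whose build is not given in the sources used here. The locus on chromosome 7 (105815918 to 105815998) had 1061 and 818 counts in 5/6Nx pools A and B, and that on chromosome 8 (54422051 to 54422126) had 127 and 108. Those on chromosome 17 (92779439 to 92779555), chromosome 10 (62480454 to 62480538) and chromosome 3 (109612625 to 109612729) had 19 and 28, 16 and 23, and 12 and 13. None of the 5 is listed in the tables of the other weeks. No annotation of that build was used here, so the loci are named by position only.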

How the results depend on the processing

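The 29 calls at week 7 became 24 with DESeq2 size factors, 31 when the 5 top miRNAs were left out of the library sizes, 25 with no filter, 22 with a minimum count of 50, 23 by DESeq2, 32 by limma-voom and 22 without 5 entries whose sequence mirrors another entry. They became 13 in the fit of 16 libraries and 2 of 254 rat miRNAs with the other entries added. Leaving out 1 pool gave 25 and 32 calls without 5/6Nx pools A and B and 2 and 2 without sham pools A and B, on the same 253 miRNAs. The first form of these fits, with the filter recomputed, had given 25, 23, 2 and 0 in the same order; the fixed set was adopted after those counts had been seen, and the choice lifts the count without 5/6Nx pool B and without sham pool B. In the fit of 16 libraries the counts were 6, 7, 5 and 9. That form, the recomputed filter, the mirrored entries and the crossed block were chosen after seeing the data. Over the 12 fits that leave out 1 pool the count ran from 0 to 32. Outside the fit of 16 libraries, leaving out 1 pool leaves the other group's pair as the only source of spread. Counts without a sham pool and without a 5/6Nx pool thus rest on different pairs and cannot be compared. In all 23 settings were tried for the number of calls and 9 for the difference from other weeks.

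With the pool letter as a replicate block there were 22 calls, all among the 29. Deviations of same-lettered pools correlated at r = -0.151, letters are not tied to replicate numbers in the labels, and a block with crossed letters gave 65 calls. The difference from other weeks passed for 4 miRNAs, and for 5, 5 and 4 with DESeq2 size factors, no filter and a replicate block within week; leaving out 1 library gave 3 to 23, the highest without week 5 sham pool B.

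Signs turned for 5 miRNAs that did not pass. The miR-143-3p log2 change was -0.0196 with no filter, -0.0280 in the fit of 16 libraries, -0.112 without 5/6Nx pool B (-0.112 with the recomputed filter, -0.200 in the fit of 16) and -0.0238 without sham pool B (-0.0384 and -0.175); it was highest, 0.128, without 5/6Nx pool A. The miR-22-3p log2 change was 0.0286 without sham pool A (0.0336 and 0.0119) and -0.219 without sham pool B (-0.373 in the fit of 16). The miR-26a-5p log2 change was -0.0861 without sham pool B in the fit of 16 and 0.186 without sham pool A. The miR-191a-5p log2 change was -0.00849 in the fit of 16, -0.00357 without 5/6Nx pool B (-0.00361 and -0.0930), -0.0508 without sham pool B (-0.0647 and -0.203) and 0.129 without sham pool A. The miR-378b log2 change was -0.0522 without 5/6Nx pool B (-0.0524 with the recomputed filter) and 0.238 without 5/6Nx pool A. The cause was not tested. Of the values of single miRNAs 534 kept their side of sham and whether they passed, and 324 kept their side but lost the call. A further 2 kept their side and gained a call, and 21 turned sign. Of 180 list medians 32 moved by more than the spread between pools.

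Depth limits the low end: the median SE of a log2 change was 0.56 for 17 miRNAs under 10 CPM and 0.10 for 41 miRNAs of 1000 to 10000 CPM.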

Other observations

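The miRNAs given here passed no test and, apart from miR-378a-3p, were chosen after their values were seen. The X-linked cluster of miR-201, miR-547 and miR-3585 lay below sham in 4 of 4 tested arms without a call. miR-201-5p had 46.5 and 51.9 CPM after 5/6Nx against 81.2 and 78.5 CPM in sham, with no overlap (log2 -0.70 ± 0.19, edgeR adjusted p = 0.0516). miR-547-5p had 5.30 and 8.89 CPM against 26.1 and 13.3 CPM (adjusted p = 0.0582), and miR-3585-5p had 83.6 and 57.8 CPM against 131 and 93.3 CPM (adjusted p = 0.113). In the miR-374/421 cluster, also X-linked, miR-374-5p had 23.5 and 24.5 CPM against 9.67 and 17.8 CPM (adjusted p = 0.146) and miR-421-3p had 40.6 and 46.7 CPM against 34.8 and 20.7 CPM (adjusted p = 0.195). miR-25-3p of the miR-106b-25 cluster had 1164 and 1151 CPM against 1408 and 1680 CPM, below sham in both pools (adjusted p = 0.052), and miR-378a-3p, from an intron of a PGC-1 family gene, had 15090 and 14923 CPM against 18350 and 20187 CPM (adjusted p = 0.052).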
